A study of Papio hamadryas with 14 samples.

Results

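The genes described here encode proteins that build the spliceosome or that bind pre-mRNA and steer splicing. They were taken by symbol: every gene with at least 1 single-symbol probe set in the array annotation whose symbol starts with SRSF, HNRNP, PRPF, SF3A, SF3B, SNRP or U2AF. That rule gave 58 genes of the 9580 genes named by single-symbol probe sets: 9 SRSF, 19 HNRNP, 9 PRPF, 8 SF3, 11 SNRP and 2 U2AF genes. Each gene is represented by the probe set with the highest mean log2(signal + 16) over the fetal arrays. A gene was tested where this mean exceeded 7.60, the median over all probe sets. Of the 58 genes, 53 passed; PRPF4, PRPF38B, SF3B2, SNRPF and HNRNPA3P1, which is annotated as a pseudogene, did not.

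The kidneys came from Papio hamadryas, a baboon, and were sampled whole at 60, 90, 125 and 160 days of gestation (60dG, 90dG, 125dG and 160dG) and in adulthood at 6, 12 and 7 years (adult replicates 1, 2 and 3). No sex, genotype or treatment is labelled for any of them. There were 2 arrays at 60dG and 3 in each of the other 4 groups, 14 in all, and the fetal arrays are labelled as biological replicates. The RNA was hybridised to human Affymetrix arrays, with the 11 fetal arrays on 1 array type and the 3 adult arrays on another. Values are signal intensities, which include differences in probe match between baboon and human, so no level is set against that of another gene. In whole kidney RNA, fewer cells of a type and less RNA per cell cannot be told apart.

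Splicing removes introns in steps carried out by small nuclear ribonucleoproteins. The SNRP genes encode their protein parts, among them the Sm ring; SF3A and SF3B subunits sit in the U2 particle at the branch point; U2AF reads the 3' end of the intron; and PRPF proteins serve mainly in the tri-snRNP and in activation. SR proteins (SRSF) bind exons and mostly favour their inclusion, whereas hnRNP proteins coat nascent RNA and often oppose it. Many of both classes also act in RNA export, stability and translation. In the fetal kidney, nephrons form from a dividing progenitor population that is used up towards the end of gestation in primates.

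Arrays of the same stage did not all look alike, which bears on what follows. On 60dG replicate 2 the summed signal of 6 adrenal cortex genes was 7613, against 183.2 on 60dG replicate 1 and at most 765.3 on any other array. CYP17A1, a steroid hydroxylase of the adrenal gland, gave a signal of 4960 there, and its next highest array gave 247.7. STAR, the cholesterol carrier of steroid-making cells, gave 1097 there and at most 64.4 elsewhere. On adult replicate 3 the summed signal of 8 skeletal muscle genes was 9653, against 735.9 and 925.2 on the other adult arrays. ACTA1, skeletal muscle actin, gave 3448 there and at most 112.4 elsewhere. The third feature concerns 90dG. GAPDH control probe sets from the 3' and the 5' end of the transcript differ in signal by a ratio that rises where labelled copies are shortened at their 5' ends. That ratio was 1.78, 2.46 and 3.43 on the 90dG arrays, while the fetal arrays of other stages ranged from 1.62 to 1.99. Counts of called genes are given with and without these arrays, together with the number of alternatives in which a named call was lost for most genes; values of single probe sets are given over all arrays.

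The tissue label was set against marker genes. Of 14 tested kidney markers, 6 rose and 1 fell between 60dG and 160dG (6.92% and 4.72% of all tested genes), and all 3 tested nephron progenitor genes fell. Of 2 tested erythroid genes, 1 rose and 1 fell. Neither of the 2 tested leukocyte genes and none of the 8 tested endothelial genes passed the limma test in that comparison, against 11.6% of all tested genes. At an unadjusted limma p under 0.05, 0 and 3 of them passed, against 25.0% of all tested genes.

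Between the earliest and the latest fetal stage, the splicing genes shifted downward. In limma fits over all 5278 tested genes, with Benjamini-Hochberg adjusted p under 0.05 as the call, 9 of the 53 fell from 60dG to 160dG and none rose. Among all tested genes, 4.72% fell and 6.92% rose, 11.6% in all. At an unadjusted limma p under 0.05 the split was 23 lower and 0 higher (12.0% and 13.0% of all tested genes). The median log2 difference of the 53 genes was -0.44, against -0.01 for all tested genes, and 42 of the 53 lay below 0, against 50.8% of all tested genes. In 31 of the 53 every 160dG array lay below every 60dG array (58.5%; 21.9% of all tested genes), and in 1 every 160dG array lay above (21.0% of all tested genes). Without 60dG replicate 2, the array with adrenal markers, the median was again -0.44 and 46 of 53 lay below 0, but only 2 genes were called lower (2.52% of all tested genes). Without 60dG replicate 1, 1 gene was called lower (1.44%).

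**Figure D1:**
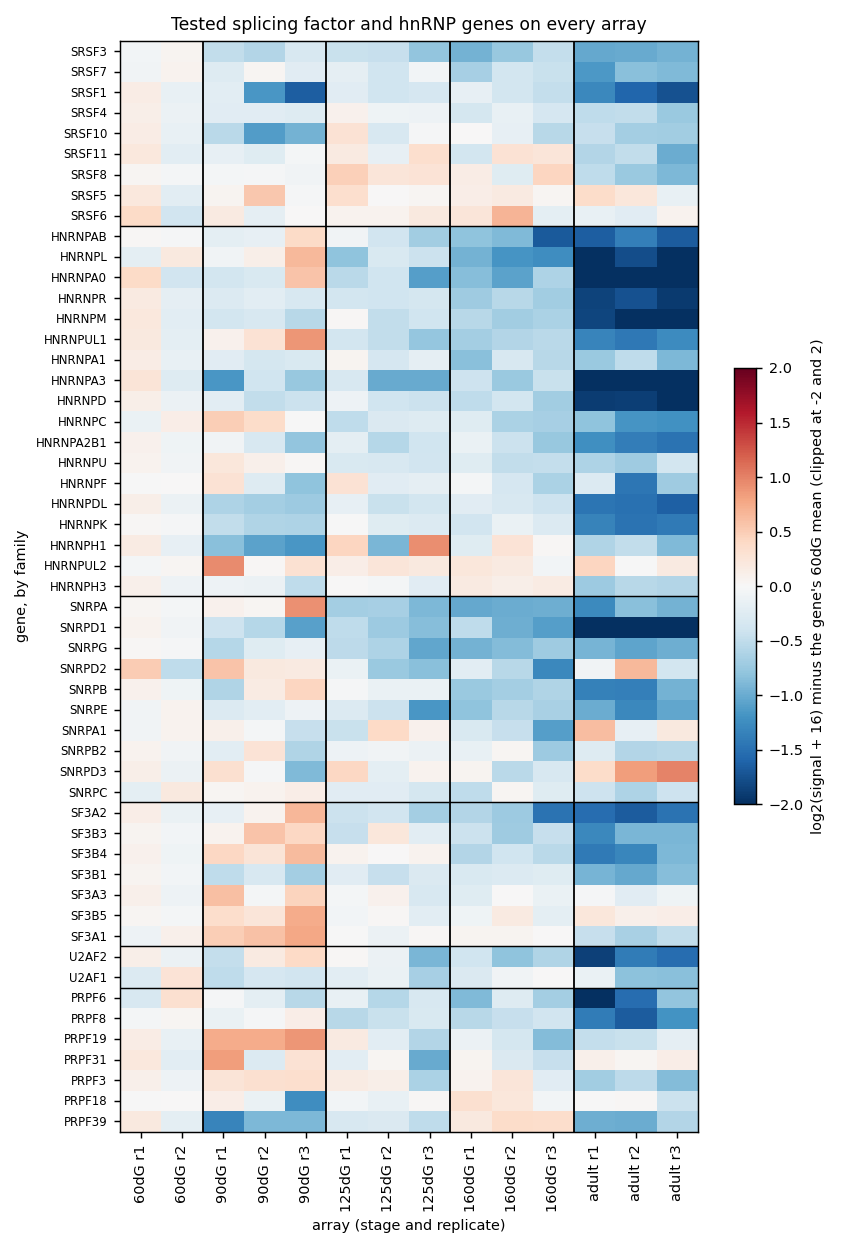
Each row is a tested gene, grouped by family, and each column an array; colour gives log2(signal + 16) minus the gene's mean at 60dG, clipped at -2 and 2. Most HNRNP and SNRP rows are bluer, that is lower, at 160dG than at 60dG. The adult arrays, which are of another array type, lie on average below 160dG in 17 of 18 HNRNP rows and 7 of 10 SNRP rows.

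The slope over gestation day gave the same direction. For 12 of the 53 genes the linear trend was called downward (4.91% of all tested genes, 9.74% either way), and for 0 upward by limma (4.83% of all tested genes). At an unadjusted limma p under 0.05, 0 of the 53 were upward as well, against 12.0% of all tested genes. The 12 were HNRNPL, SNRPA, HNRNPAB, SF3A2, HNRNPA0, SNRPG, HNRNPC, SNRPE, SRSF3, HNRNPR, PRPF8 and HNRNPU. Of the 14 genes called in the trend or between 60dG and 160dG, 7 were called in both. The count of 12 was 6 without 125dG replicate 2 or 60dG replicate 1 (7.73% and 7.14% of all tested genes called either way), 7 without 160dG replicate 2 or 3 (7.16% and 6.31%), and 13 without 60dG replicate 2 (7.92%). Slopes of HNRNPL, SNRPA, SNRPG and HNRNPAB kept their call in every alternative that gave them a value. Calls were lost in 15 of 25 alternatives for SNRPE, 14 of 24 for PRPF8 and 13 of 24 for HNRNPC and HNRNPU. They were lost in 9 of 24 for SRSF3, 7 of 25 for HNRNPA0, 3 of 24 for HNRNPR and 1 of 25 for SF3A2. In the fit over all probe sets, slopes of the other HNRNPA0, HNRNPU, SNRPE, HNRNPR and SRSF3 probe sets lay below 0 without a call. The other HNRNPL probe set had a called slope, and so did 1 of HNRNPC.

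Genes of the cell cycle fell over the same stages. Of 20 tested cell cycle genes, 18 fell from 60dG to 160dG, and their median log2 difference was -1.77. The summed signal of all 30 listed genes ranged from 15475 to 15529 at 60dG, from 9496 to 11464 at 90dG, from 6570 to 8191 at 125dG and from 3630 to 5525 at 160dG, and none of them was at 0 on any array. The 6 annotated nephron progenitor genes summed to between 3093 and 3648 at 60dG and between 1285 and 1420 at 160dG. The part of either list in the downward shift of the splicing genes was not tested.

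The SNRP family, which supplies the protein core of the splicing particles, had the lowest family median between 60dG and 160dG. All 10 tested SNRP genes lay below 0, with a median log2 difference of -0.67, and 3 of them, SNRPA, SNRPD1 and SNRPG, fell. SNRPA encodes a protein of the U1 particle that binds a stem-loop of its RNA. The SNRPA signal was 1198 and 1129.5 at 60dG, 1237, 1193 and 2198 at 90dG, 724, 730.3 and 618 at 125dG, 563, 574 and 584 at 160dG, and 474, 647 and 598 in adults. All 125dG and 160dG arrays lay below all 60dG and 90dG arrays, with 90dG replicate 3 the highest and the adult arrays overlapping those of 160dG. SNRPA fell by 1.00 ± 0.23 (SE) on the log2 scale from 60dG to 160dG (limma adjusted p = 0.011), a call lost when either 60dG array was left out. Its slope, -0.13 ± 0.03 log2 units (SE) per 10 days (limma adjusted p = 0.00872), kept its call in all 25 alternatives.

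SNRPG and SNRPD1 encode Sm ring proteins that wrap the particle's RNA. Mean SNRPG signal was 2250.1 ± 44 (SD, n = 2) at 60dG, 1807 ± 259 (SD, n = 3) at 90dG, 1368 ± 248 (SD, n = 3) at 125dG and 1252 ± 109 (SD, n = 3) at 160dG. It fell from 60dG to 160dG by 0.84 ± 0.19 (SE) on the log2 scale (limma adjusted p = 0.00894). SNRPG was also the only gene of the 53 called between 60dG and 125dG, where it fell by 0.73 ± 0.19 (SE; limma adjusted p = 0.038; 1.27% of all tested genes fell and 4.64% were called either way). In that comparison 0 of the 53 rose by limma (3.37% of all tested genes). At an unadjusted limma p under 0.05, 0 were higher and 14 lower (9.83% and 6.82% of all tested genes). Mean SNRPD1 signal was 1068 ± 78.3 (SD, n = 2) at 60dG, 668 ± 158 (SD, n = 3) at 90dG, 655 ± 81.8 (SD, n = 3) at 125dG and 589 ± 136 (SD, n = 3) at 160dG. It fell by 0.86 ± 0.23 (SE) on the log2 scale (limma adjusted p = 0.0269; lost in 5 of 24 alternatives). The 60dG arrays stood above every later array for both genes. All of these calls on SNRPG and SNRPD1 between stages were lost when either 60dG array was left out.

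Among the 18 tested hnRNP genes, 15 lay below 0 between 60dG and 160dG, with a median log2 difference of -0.52, and 4 fell: HNRNPL, HNRNPAB, HNRNPR and HNRNPM. HNRNPL binds CA-rich RNA and can silence or activate exons. The HNRNPL signal was 3066 and 4053 at 60dG, 3357, 3805 and 5565 at 90dG, 2014, 2849 and 2614 at 125dG, 1829, 1555 and 1475 at 160dG, and 874, 1022 and 782 in adults. The 60dG and 90dG arrays overlapped, the 125dG arrays lay below all of them, the 160dG arrays lay below all 125dG arrays, and the adult arrays were lower still. HNRNPL fell by 1.12 ± 0.22 (SE) on the log2 scale from 60dG to 160dG (limma adjusted p = 0.00427), a call lost only without 60dG replicate 2. Its other probe set gave a log2 difference of -0.95 in the fit over all probe sets (limma adjusted p = 0.00211).

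HNRNPAB binds single-stranded RNA and DNA and is known from mRNA editing and transport complexes. The HNRNPAB signal was 1025 and 986 at 60dG, 874, 896 and 1315 at 90dG, 961, 766 and 615 at 125dG, 571, 538 and 302 at 160dG, and 310.4, 378 and 306 in adults. The 160dG arrays lay below all earlier ones, and 90dG replicate 3 was again the highest. HNRNPAB fell by 1.12 ± 0.27 (SE) on the log2 scale from 60dG to 160dG (limma adjusted p = 0.0162), a call lost without either 60dG array. HNRNPR, a relative of the hnRNP Q protein with roles in mRNA transport, had its highest signals at 60dG. Mean HNRNPR signal was 3583 ± 605 (SD, n = 2) at 60dG, 2944 ± 119.6 (SD, n = 3) at 90dG, 2738 ± 49.1 (SD, n = 3) at 125dG and 2262 ± 143 (SD, n = 3) at 160dG. It fell by 0.65 ± 0.14 (SE; limma adjusted p = 0.00851), lost only without 60dG replicate 1. HNRNPM, which binds GU-rich RNA, fell by 0.63 ± 0.19 (SE; limma adjusted p = 0.0458), a call lost in 12 of 24 alternatives.

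In the remaining families fewer genes passed. Of 7 tested SF3 genes, 6 lay below 0 and SF3A2, a zinc finger subunit of SF3A, fell by 0.93 ± 0.28 (SE) on the log2 scale (limma adjusted p = 0.0431; lost in 11 of 25 alternatives). Of 9 tested SRSF genes, 5 lay below 0 and SRSF3, an SR protein that also acts in mRNA export, fell by 0.72 ± 0.17 (SE; limma adjusted p = 0.0141; lost without 160dG replicate 1 or either 60dG array). None of the 7 tested PRPF genes and neither U2AF gene was called by limma in this comparison (2 and 0 at an unadjusted p under 0.05). Family medians in this comparison, below 0 also after quantile normalization or median scaling for all 6 families, were -0.27 for SF3, -0.23 for SRSF, -0.23 for PRPF and -0.36 for U2AF. On the chosen probe sets of the SRSF family the lower and higher values were nearly balanced, with SRSF6 at 0.24 and SRSF5 at 0.12, and neither was called. In the fit over all probe sets, other probe sets were called lower. They were those of SRSF1 at -0.65 and -0.76 (limma adjusted p = 0.0397 and 0.0252), 1 of SRSF7 at -0.82 (limma adjusted p = 0.0208) and 1 of SRSF10 at -1.39 (limma adjusted p = 0.0112). No SRSF probe set was called higher.

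**Figure D2:**
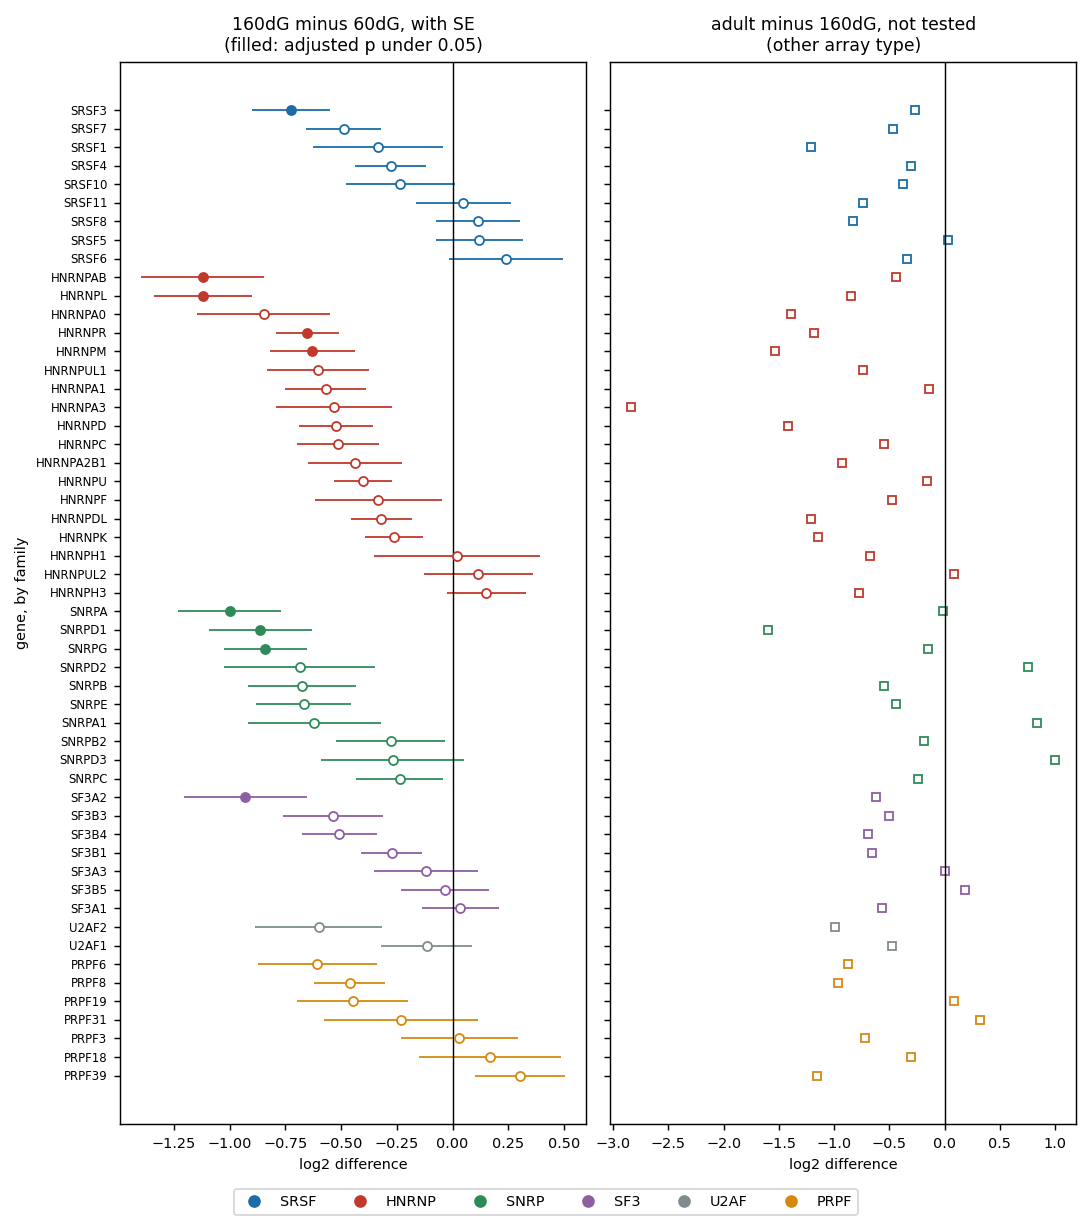
Left: log2 difference from 60dG to 160dG for each tested gene, with its SE as a line and filled points where the adjusted p was under 0.05; right: adult minus 160dG, not tested. The called genes on the left run from -1.12 for HNRNPAB and HNRNPL to -0.63 for HNRNPM, and no point to the right of 0 is filled.

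The shape over the 4 stages differed between genes. The moderated F test for any difference called 19 of the 53 genes (35.8%), against 18.2% of all tested genes. The count was 11 when 60dG replicate 1, 90dG replicate 2 or 90dG replicate 3 was left out (10.1%, 12.8% and 11.8% of all tested genes), and 15 when 60dG replicate 2 was (12.1%). It was 9 when the 90dG group was left out (8.7%). Over the 5 stage comparisons, the trend and the F test, 25 of the 53 genes were called at least once and 28 were not. Among the 12 genes chosen for the plot of signals, F test calls of SNRPA, HNRNPL and SF3B4 held in every alternative.

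**Figure D3:**
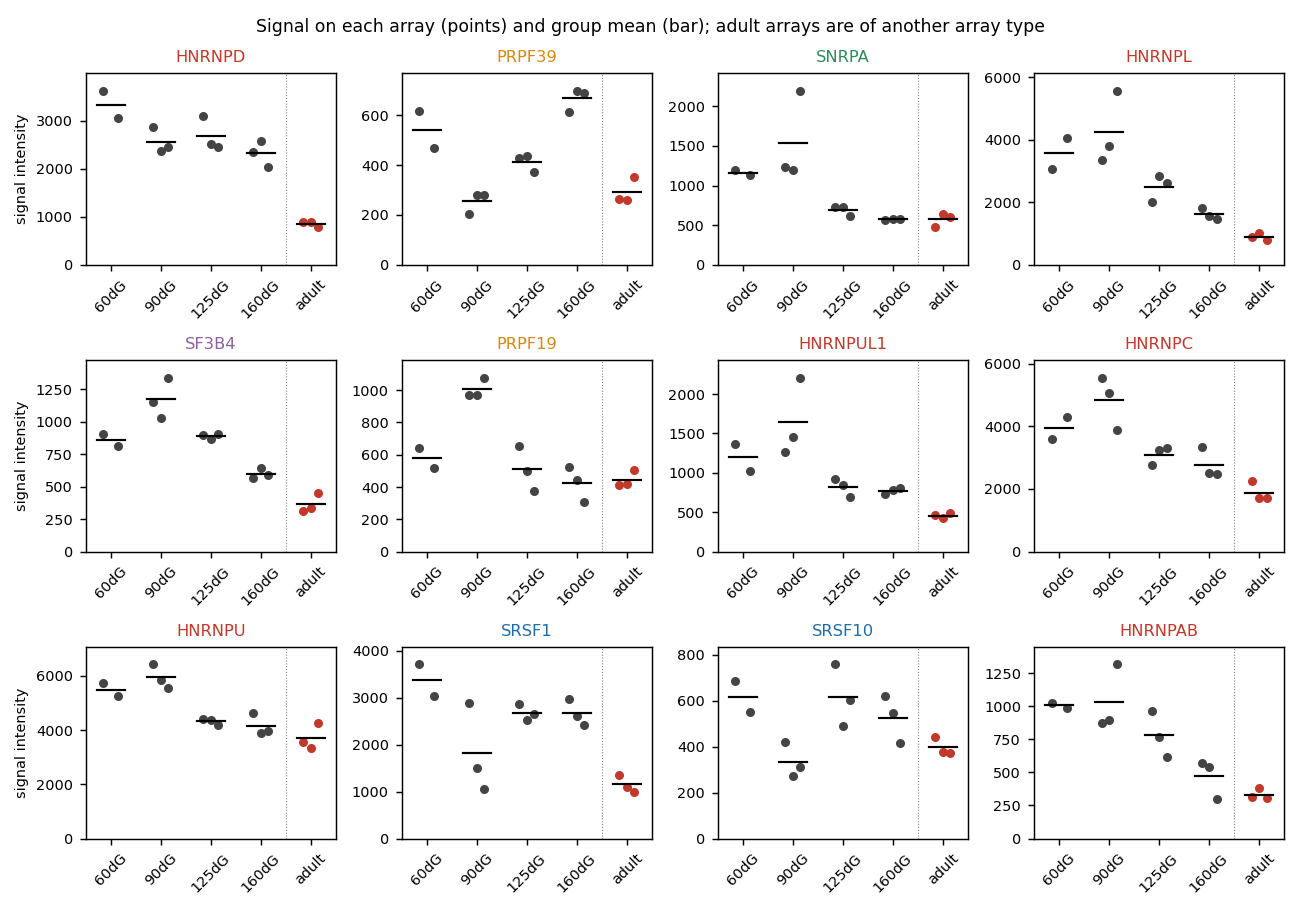
Signal intensity (linear axis from 0) on each array, with a bar at the group mean, for 12 genes: HNRNPD, the 8 genes with the smallest F test p and up to 3 called genes with the largest differences from 60dG to 90dG, 90dG to 125dG and 60dG to 160dG. On the probe sets shown, SNRPA, HNRNPL and HNRNPAB step down towards 160dG, PRPF39, SRSF1 and SRSF10 dip at 90dG, and PRPF19 stands highest at 90dG. Adult points are of another array type.

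The 90dG arrays formed their own pattern. From 60dG to 90dG, 6 of the 53 genes fell (3.58% of all tested genes) and 1 rose (5.53%), 7 in all (9.11%). From 90dG to 125dG, 7 fell (2.61% of all tested genes) and 2 rose (2.56%), 9 in all (5.17%). In all, 13 genes were called in either step, none of them was called between 60dG and 125dG, and the 3 called in both steps, PRPF39, SRSF10 and SF3A1, had opposite signs in the 2 steps. These steps share the 90dG arrays, so an opposite sign is no independent result. Groups did not overlap in 18 genes lower at 90dG than at 60dG (18.0% of all tested genes) and 6 higher (24.2%). The median log2 difference of the 53 genes was -0.15 in the first step, against 0.04 for all tested genes, and -0.09 in the next, against -0.02.

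PRPF39, a protein associated with the U1 particle, had the largest fall of the first step. The PRPF39 signal was 615 and 468 at 60dG, 205, 281 and 281 at 90dG, 429, 436 and 373 at 125dG, 615, 699 and 689 at 160dG, and 266, 261 and 351 in adults. The 90dG arrays were the lowest fetal arrays with no overlap, 125dG lay between, and 160dG overlapped 60dG. PRPF39 fell by 1.04 ± 0.20 (SE) on the log2 scale from 60dG to 90dG (limma adjusted p = 0.00841), a call lost only without 60dG replicate 1. It rose by 0.67 ± 0.18 (SE) to 125dG (limma adjusted p = 0.0481), a call lost in 18 of 23 alternatives. From 125dG to 160dG its difference was again 0.67 ± 0.18 (SE), which was not called (limma adjusted p = 0.194).

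SRSF1, the founding SR protein, binds purine-rich exon enhancers. The SRSF1 signal was 3708 and 3041 at 60dG, 2896, 1495 and 1062 at 90dG, 2873, 2531 and 2643 at 125dG, 2980.0, 2609 and 2415 at 160dG, and 1358, 1106 and 990.5 in adults. On 90dG replicates 2 and 3, the arrays with the highest GAPDH ratios, it was below every other fetal array, while replicate 1 stood within the range of the later stages. SRSF1 fell by 1.01 ± 0.29 (SE) on the log2 scale from 60dG to 90dG (limma adjusted p = 0.047), a call lost in 15 of 23 alternatives. Its other probe sets gave -0.49 and -0.78 in this step, and -0.07 and 0.05 from 90dG to 125dG. The chosen probe set gave 0.68 from 90dG to 125dG, a difference not called in the fit over all probe sets (limma adjusted p = 0.127). SRSF10, an SR protein known for its response to heat shock, was also low at 90dG. The SRSF10 signal was 683 and 551 at 60dG, 419, 273 and 310.1 at 90dG, 757, 489.8 and 604 at 125dG, 620.2, 544 and 414 at 160dG, and 443, 375 and 371 in adults. All 90dG arrays lay below all 60dG and 125dG arrays and overlapped those of 160dG. SRSF10 fell by 0.87 ± 0.24 (SE; limma adjusted p = 0.0408) and then rose by 0.85 ± 0.22 (SE; limma adjusted p = 0.0426), calls lost in 11 and 14 of 24 alternatives. Its other probe sets gave -1.07, -0.67 and -0.81 in the first step, and 0.82, 0.03 and 0.00027 in the next.

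The other genes that fell from 60dG to 90dG were HNRNPDL, HNRNPK and SF3B1. Mean HNRNPDL signal was 5309 ± 642 (SD, n = 2) at 60dG, 3310.0 ± 119.6 (SD, n = 3) at 90dG, 4229 ± 439.6 (SD, n = 3) at 125dG and 4243 ± 274 (SD, n = 3) at 160dG. HNRNPDL, a close relative of HNRNPD, fell by 0.67 ± 0.14 (SE) on the log2 scale (limma adjusted p = 0.0113; lost in 3 of 24 alternatives). HNRNPK, whose KH domains bind C-rich RNA, fell by 0.58 ± 0.13 (SE; limma adjusted p = 0.0168; lost in 6 of 23 alternatives). SF3B1, the largest SF3B subunit, fell by 0.51 ± 0.14 (SE; limma adjusted p = 0.0361; lost in 8 of 23 alternatives). Against them SF3A1, a U2 particle subunit, rose by 0.62 ± 0.17 (SE; limma adjusted p = 0.0394) and then fell by 0.65 ± 0.15 (SE; limma adjusted p = 0.0315), calls lost in 11 and 8 of 23 alternatives. Mean SF3A1 signal was 441 ± 46.7 (SD, n = 2) at 60dG, 686 ± 70.6 (SD, n = 3) at 90dG, 430.1 ± 21.7 (SD, n = 3) at 125dG and 451 ± 9.53 (SD, n = 3) at 160dG. In the SF3 family 6 of 7 genes lay above 0 in the first step (median 0.35) and 6 of 7 below 0 in the next (median -0.50).

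PRPF19 is the ubiquitin ligase of the complex that activates the spliceosome. The PRPF19 signal was 642 and 515 at 60dG, 971, 971 and 1078 at 90dG, 652, 497 and 378 at 125dG, 527, 446 and 308 at 160dG, and 411, 416 and 505 in adults. Its 90dG arrays lay above all other arrays, the other fetal groups overlapped, and both 60dG arrays lay above the adult ones. PRPF19 fell by 0.99 ± 0.22 (SE) on the log2 scale from 90dG to 125dG (limma adjusted p = 0.0263; lost in 6 of 23 alternatives), and its difference of 0.79 ± 0.25 (SE) from 60dG to 90dG was not called (limma adjusted p = 0.0639). SF3B4, an SF3B subunit that contacts the pre-mRNA near the branch point, was highest at 90dG as well. The SF3B4 signal was 909 and 813 at 60dG, 1154, 1027 and 1341 at 90dG, 898, 864 and 907 at 125dG, 566, 647 and 588 at 160dG, and 314, 339.7 and 452 in adults. The 90dG arrays lay above all others, 60dG and 125dG overlapped, and 160dG lay below all other fetal arrays. Its F test was called (limma adjusted p = 0.00533), and its difference of -0.51 ± 0.17 (SE) from 60dG to 160dG was not (limma adjusted p = 0.0674).

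HNRNPUL1, an hnRNP U relative, had its highest signal on 90dG replicate 3. The HNRNPUL1 signal was 1365 and 1029 at 60dG, 1260.1, 1455 and 2210.1 at 90dG, 916, 840.2 and 688 at 125dG, 732, 786 and 807 at 160dG, and 463, 429 and 485 in adults. Its 60dG and 90dG arrays overlapped, as did those of 125dG and 160dG, and the later pair of stages lay below the earlier pair. HNRNPUL1 fell by 0.97 ± 0.20 (SE) on the log2 scale from 90dG to 125dG (limma adjusted p = 0.0205; lost in 5 of 24 alternatives), but its other probe set gave -0.17. HNRNPC, a core particle protein that binds uridine tracts of nascent RNA, showed the same grouping. The HNRNPC signal was 3604 and 4289 at 60dG, 5556, 5065 and 3893 at 90dG, 2758, 3229 and 3292 at 125dG, 3332, 2519 and 2465 at 160dG, and 2239.5, 1719.5 and 1697 in adults. All 125dG and 160dG arrays lay below all 60dG and 90dG arrays. HNRNPC fell by 0.63 ± 0.16 (SE; limma adjusted p = 0.044; lost in 15 of 23 alternatives), and its other probe sets gave -0.62, 0.54 and -0.24 in this step.

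HNRNPU, a nuclear scaffold protein that binds RNA and chromatin, completed this group. The HNRNPU signal was 5740.2 and 5237 at 60dG, 6419.9, 5857 and 5564 at 90dG, 4420.2, 4384 and 4190.3 at 125dG, 4613, 3891 and 3956 at 160dG, and 3573, 3339 and 4247 in adults. Both later fetal stages again lay below both earlier ones, and the adult arrays overlapped those of 160dG. HNRNPU fell by 0.45 ± 0.12 (SE) on the log2 scale from 90dG to 125dG (limma adjusted p = 0.0427; lost in 13 of 23 alternatives). In this step SNRPA fell by 1.09 ± 0.21 (SE; limma adjusted p = 0.0145), a call lost with the GAPDH ratio as a covariate, without 125dG replicate 3, and with 90dG replicates 2 and 3 both left out. HNRNPL fell by 0.74 ± 0.20 (SE; limma adjusted p = 0.0456; lost in 17 of 24 alternatives), and its other probe set gave -0.77 in the fit over all probe sets (limma adjusted p = 0.0126).

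Both 90dG counts moved with single arrays and with the GAPDH ratio, and so did the share of all tested genes called, given in brackets. The first step had 7 called genes, which became 0 without 60dG replicate 1 (1.53%; 13 genes at an unadjusted limma p under 0.05). It was 2 when 60dG replicate 2 was left out (3.11%), 4 for 90dG replicate 2 (5.65%), 3 for 90dG replicate 3 (4.59%), and 2 with the GAPDH ratio as a covariate (4.11%). The next step had 9, which became 0 without 125dG replicate 3 (0.644%; 17 genes at an unadjusted limma p under 0.05). It was 3 when 125dG replicate 1 was left out (1.19%), 4 for 125dG replicate 2 (2.86%) or 60dG replicates 1 or 2 (3.22% and 3.3%), and 5 for 160dG replicate 2 (4.34%). It was 2 for 90dG replicates 2 or 3 (2.39% and 0.834%) and 1 with the covariate (0.625%). With only 90dG replicate 1 kept in that group, the counts were 1 (1.78%) and 0 (0.606%; 12 genes at an unadjusted limma p under 0.05). With the covariate, 16 genes were called between 60dG and 160dG (13.7%).

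**Figure D4:**
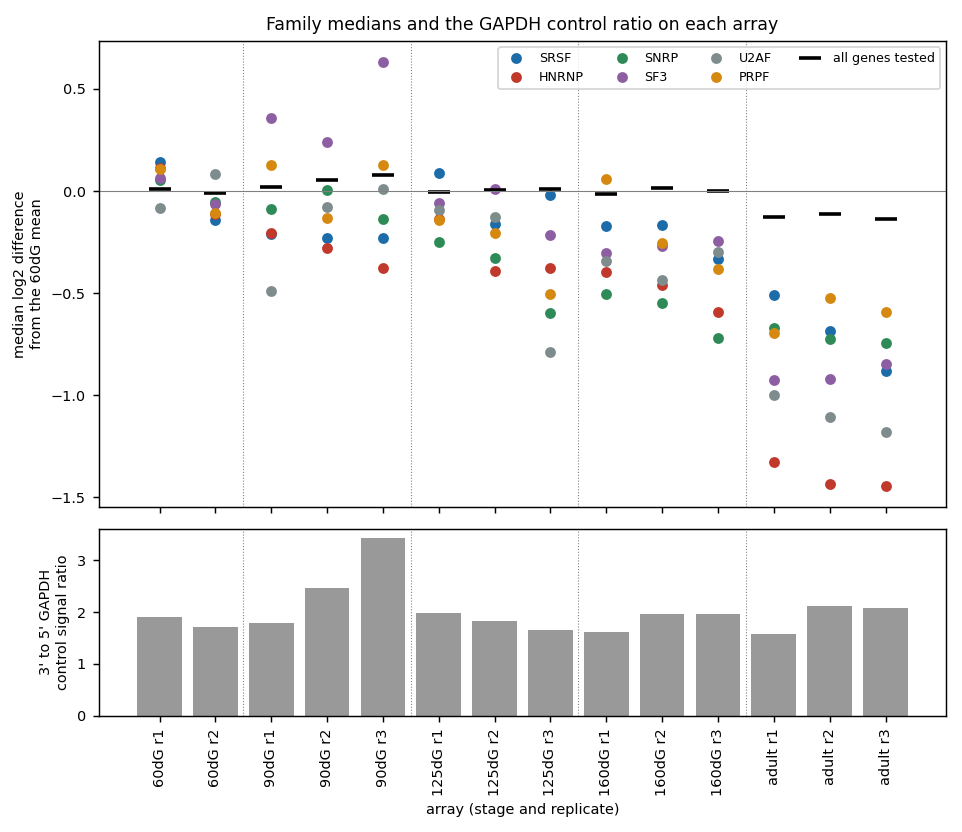
Top: median log2 difference from the 60dG mean for each family on each array, with a black dash for all tested genes; bottom: the 3' to 5' GAPDH control ratio, as bars from 0. On 90dG replicate 3, where the ratio is 3.43, the SF3 median stands at 0.63 and the HNRNP median at -0.38; on all 3 adult arrays the HNRNP median is the lowest on this scaling.

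From 125dG to 160dG no gene of the 53 was called by limma (0.322% of all tested genes: 0.0758% higher, 0.246% lower). At an unadjusted limma p under 0.05, 1 was higher and 7 were lower (3.52% and 4.74% of all tested genes). The median log2 difference was -0.13, against -0.0042 for all tested genes, and 40 of 53 lay below 0. On single arrays the median of the 53 genes relative to 60dG was -0.13, -0.29 and -0.32 at 125dG and -0.30, -0.36 and -0.47 at 160dG.

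Several genes are read by more than 1 probe set, so the differences can be compared between probe sets. Probe sets of a gene are read on the same arrays, so a shared sign is no independent result. The share over all genes with more than 1 probe set was not counted. Of the 53 genes, 26 had more than 1 probe set above the filter, 71 probe sets in all. Their probe sets shared a sign in 20 of the 26 genes between 60dG and 160dG, in 22 between 60dG and 90dG and in 9 between 90dG and 125dG. The median spread between the highest and the lowest probe set of a gene was 0.30 log2 units between the first and last stage, 0.42 in the first step and 0.54 in the next.

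HNRNPD, also known as AUF1, binds AU-rich elements and speeds decay of the mRNAs that carry them. The HNRNPD signal was 3629.6 and 3052 at 60dG, 2863, 2373 and 2466 at 90dG, 3092, 2527 and 2465 at 125dG, 2347, 2583 and 2038 at 160dG, and 885, 887 and 792 in adults. All 160dG arrays lay below both 60dG arrays, the 3 later fetal stages overlapped, and the adult arrays were below all fetal ones. HNRNPD was not called by the F test (limma adjusted p = 0.14) or from 60dG to 160dG, where its log2 difference was -0.52 ± 0.17 (SE; limma adjusted p = 0.0556).

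Its 4 probe sets above the filter did not give the same picture. From 60dG to 160dG they gave log2 differences of -0.52, -0.19, -0.48 and 0.55, none of them called in the fit over all probe sets. From 60dG to 90dG they gave -0.38, 0.00, -0.59 and -0.90. The last of these, the dimmest of the 4 on the fetal arrays, had group mean signals of 453 at 60dG, 235 at 90dG, 426 at 125dG and 680.2 at 160dG. It was lower at 90dG (limma adjusted p = 0.0404 over all probe sets) and higher again by 0.82 at 125dG (limma adjusted p = 0.0481).

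Further probe sets gave lower values at 90dG too. In the fit over all probe sets, 11 of the 53 genes had a probe set called lower from 60dG to 90dG. For 1 gene a probe set was called higher. Of all tested probe sets, 4.77% were called lower. Other probe sets lay above 0, among them those of HNRNPUL1, HNRNPA0, SRSF6 and SF3A1 at 0.53, 0.49, 0.29 and 0.27, without a call. HNRNPH1, which binds G-rich RNA, had 4 probe sets above the filter with log2 differences of -1.02, -1.04, -1.43 and -2.71 from 60dG to 90dG, the last 2 called over all probe sets (limma adjusted p = 0.0471 and 0.0117). SF3B1 gave -0.51, -0.57, -1.38 and -1.30, of which the first and the last 2 were called. SRSF7, an SR protein with a zinc knuckle, gave -0.15, -1.02 and -0.17, and the middle value alone was called (limma adjusted p = 0.00797). SRSF3 gave -0.46, -0.96 and -0.82, the last 2 called. All 4 HNRNPDL probe sets above the filter lay below 0, at -0.67, -0.86, -0.71 and -0.61.

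HNRNPC and HNRNPU disagreed in sign between their probe sets at 90dG. The HNRNPC probe sets gave 0.28, 0.20, -0.63 and -0.20 from 60dG to 90dG. For HNRNPU, the chosen probe set gave 0.11 and the other -0.71, which was called over all probe sets (limma adjusted p = 0.041). From 90dG to 125dG these HNRNPU probe sets gave -0.45 and 0.30, so that its fall in that step holds for the brighter probe set and not for the other. HNRNPK likewise had -0.58 on the chosen probe set and -0.01 on the other in the first step.

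**Figure D5:**
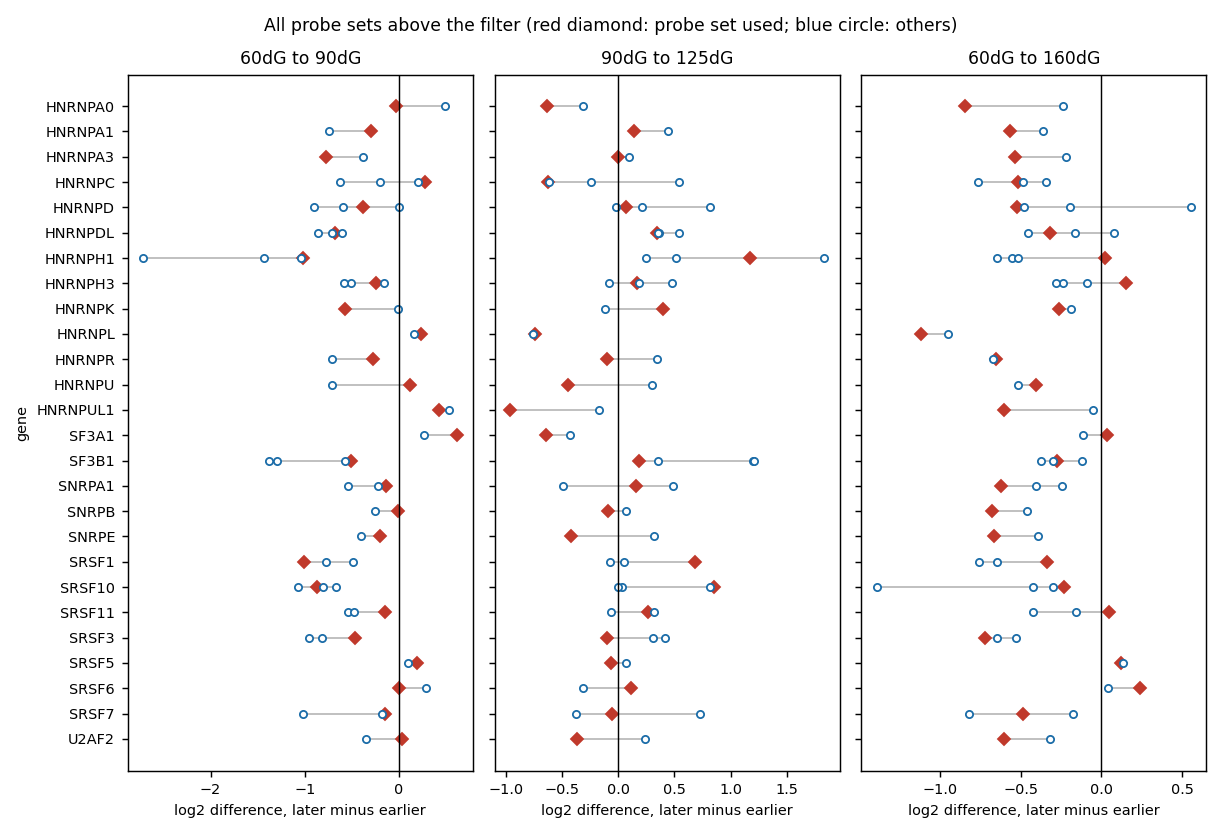
Log2 difference of each probe set above the filter, for genes with more than 1, in 3 comparisons: red diamonds are the probe sets used in the tests, blue circles the others, and grey lines join probe sets of a gene. HNRNPH1 runs from -2.71 to -1.02 in the left panel, and HNRNPD from -0.52 to 0.55 in the right panel.

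Of the 5 genes below the filter, PRPF4, a tri-snRNP protein, was the only gene called in a fit without a filter. The PRPF4 signal was 219 and 176 at 60dG, 38.5, 14.8 and 26.3 at 90dG, 279, 167 and 218 at 125dG, 189.5, 119 and 190.3 at 160dG, and 208, 209 and 222 in adults. Its 90dG signals were below those of every other group, the other fetal groups overlapped, and the adult arrays lay above those of 160dG. In that fit PRPF4 fell by 2.36 on the log2 scale to 90dG (limma adjusted p = 0.0039) and rose by 2.49 to 125dG (limma adjusted p = 0.00405). SF3B2 had the opposite shape, with a log2 difference of 1.76 to 90dG that was not called (limma adjusted p = 0.206).

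Splicing genes outside the symbol rule were counted in the same fits, from 5 lists with 106 tested genes. From 60dG to 160dG 11 of them fell and 1 rose (4.72% and 6.92% of all tested genes). Their median log2 difference was -0.15, against -0.01 for all tested genes. From 60dG to 90dG 8 fell and 0 rose by limma (3.58% and 5.53% of all tested genes). At an unadjusted limma p under 0.05, 24 were lower and 4 higher there (11.2% and 14.7% of all tested genes). From 90dG to 125dG 5 rose and 2 fell (2.56% and 2.61%). In alternatives chosen after seeing the data, the 12 genes called from 60dG to 160dG became 1 without 60dG replicate 1 and 7 without 60dG replicate 2. The 8 called from 60dG to 90dG became 2 and 3 without those arrays, 4 without 90dG replicate 3 and 6 without 90dG replicates 2 and 3 together. The 7 called in the next step became 4 without either 60dG array or 90dG replicate 2, and 3 without 90dG replicate 3 or with the covariate. In each of these alternatives the share of all tested genes called was lower as well. By list, 3 of 21 snRNP proteins outside the rule, 0 of 20 assembly and catalysis factors, 1 of 24 SR-like proteins and kinases, 7 of 32 other regulators and 0 of 9 exon junction and export factors fell from 60dG to 160dG by limma. In the lists with no call, 2 and 0 genes were lower at an unadjusted p under 0.05. PPIH, a cyclophilin of the tri-snRNP, fell by 1.34 ± 0.31 (SE) on the log2 scale (limma adjusted p = 0.0105; lost without either 60dG array), from a mean signal of 309.4 ± 22.2 (SD, n = 2) to 119 ± 47.8 (SD, n = 3). CHERP, a U2-associated protein, had a called downward slope of -0.08 ± 0.02 log2 units (SE) per 10 days (limma adjusted p = 0.0261; lost in 4 of 24 alternatives).

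Lower values at 90dG were also seen there. TIA1, which binds U-rich introns and helps recruit U1, had mean signals of 1453 ± 26.7 (SD, n = 2) at 60dG, 557 ± 91.2 (SD, n = 3) at 90dG and 1089 ± 128 (SD, n = 3) at 125dG. It fell by 1.37 ± 0.18 (SE) on the log2 scale (limma adjusted p = 0.000805) and then rose by 0.95 ± 0.16 (SE; limma adjusted p = 0.01). SREK1, an SR-related protein, fell by 1.11 ± 0.18 (SE; limma adjusted p = 0.00333) and rose by 0.68 ± 0.16 (SE; limma adjusted p = 0.0309). MBNL1, the muscleblind regulator of alternative exons, fell by 0.71 ± 0.19 (SE; limma adjusted p = 0.0315) and rose by 0.80 ± 0.17 (SE; limma adjusted p = 0.02). DDX46, an RNA helicase, fell by 1.14 ± 0.20 (SE; limma adjusted p = 0.0051). CDC5L, a partner of PRPF19, fell by 0.58 ± 0.17 (SE; limma adjusted p = 0.0427) and rose by 0.82 ± 0.15 (SE; limma adjusted p = 0.0137). CLK4, a kinase of SR proteins, rose from 90dG to 125dG by 0.81 ± 0.22 (SE; limma adjusted p = 0.0456), while EIF4A3, the helicase of the exon junction complex, fell by 0.73 ± 0.18 (SE; limma adjusted p = 0.0415). Over 22 to 24 alternatives a gene, chosen after seeing the data, the falls of TIA1 and SREK1 kept their call in each, and that of DDX46 was lost without 60dG replicate 1 and with 90dG replicates 2 and 3 both left out. For CDC5L the fall was lost in 16 and the rise in 4, and for MBNL1 in 5 and 2. CLK4 lost its call in 14 and EIF4A3 in 12, and the rises of TIA1 and SREK1 were lost in 2 and 5, in both cases with the GAPDH ratio as a covariate among them. With that covariate, 9 of the 106 genes fell from 60dG to 90dG (1.65% of all tested genes). From 90dG to 125dG 3 rose and 0 fell by limma (0.625% of all tested genes called either way).

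The adult kidneys were compared with 160dG without a test, because age and array type cannot be told apart. The median log2 difference of the 53 genes, adult minus 160dG, was -0.55, against -0.13 for all tested genes, and 44 of 53 lay below 0, against 57.7%. The adult and 160dG arrays did not overlap in 29 genes that were lower in adults (54.7%; 32.1% of all tested genes) and in 2 that were higher (20.1% of all tested genes). Without adult replicate 3, the array with muscle markers, the median was -0.57. Relative to 60dG, the median of the 53 genes was -0.92, -0.92 and -0.89 on the 3 adult arrays. Cell cycle genes, with summed signals from 4181 to 4585 in adults, had a median difference of -0.11 between adult and 160dG.

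Most hnRNP genes were lower in adults. Of 18 tested, 17 lay below 0, with a median of -0.81, while the medians were -0.74 for U2AF, -0.72 for PRPF, -0.57 for SF3, -0.38 for SRSF and -0.17 for SNRP. After quantile normalization the SNRP median was 0.04, the other way, and those of PRPF and HNRNP were -0.86 and -0.66. Mean HNRNPA3 signal was 1438 ± 179 (SD, n = 3) at 160dG and 196 ± 78.2 (SD, n = 3) in adults. HNRNPA3, an hnRNP A/B protein, thus had the lowest difference, -2.84, but its other probe set above the filter gave -0.91. Mean HNRNPM signal was 1120.5 ± 54.7 (SD, n = 3) at 160dG and 381 ± 85 (SD, n = 3) in adults. The log2 difference of HNRNPM was -1.54. Mean HNRNPD signal was 2323 ± 273 (SD, n = 3) at 160dG and 855 ± 54.1 (SD, n = 3) in adults. HNRNPD differed by -1.42 on the chosen probe set and on the third, by 0.06 on the second and by -0.30 on the fourth.

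SNRP genes stood near both ends of the range. Mean SNRPD1 signal was 589 ± 136 (SD, n = 3) at 160dG and 186 ± 60.2 (SD, n = 3) in adults. The log2 difference of SNRPD1 was -1.60, but its other probe set, which was below the filter, gave 0.73. Mean SNRPD3 signal was 236 ± 53.1 (SD, n = 3) at 160dG and 488 ± 108 (SD, n = 3) in adults. SNRPD3, another Sm ring protein, had a log2 difference of 1.00, the highest of the 53. SNRPA1, a U2 particle protein, was at 0.84 on the chosen probe set, but its other probe sets gave -1.44 and 0.43. SNRPD2 was at 0.76 and PRPF31 at 0.32, but the other PRPF31 probe set, which was below the filter, gave -1.26. Where probe sets of 1 gene point both ways between array types, the gene's direction is not settled by these arrays.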

How the data were processed

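The deposited values give 1 signal intensity per probe set and array, unlogged. Per the submitters' processing notes the authors used GCOS; the algorithm behind the signal, the scaling target and the version are unstated. Per the labels, total RNA was extracted with Trizol and labelled as biotinylated cRNA. Array medians ran from 172.9 to 194.6 on fetal and from 210.2 to 214.4 on adult arrays; the number of arrays limits the precision. Each table held 16186 probe sets; 43 controls were set aside, 14068 had 1 symbol, 735 several and 1340 none, in an annotation that can be old. Another 18 probe sets that name a gene of the rule with others were not used.

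Signals were analysed as log2(signal + 16), with 1 probe set per gene and a filter at the median of all probe sets (a signal of 178), which left 5278 genes. limma 3.58.1 in R 4.3.3 (lmFit, eBayes with an intensity trend) was fitted over the 11 fetal arrays with stage as a factor, or gestation day as a number, and p-values were adjusted by Benjamini-Hochberg over all genes; scripts were tested on simulated data. A log2 difference with the added 16 understates changes of dim genes. Genes with values on every array are HNRNPD, the 8 with the smallest F test p and up to 3 called genes with the largest difference in each step and from 60dG to 160dG (no gene was called from 125dG to 160dG), with PRPF4 added after its values were seen; the adult paragraph names the 4 largest differences each way. The genes and all lists, including kidney, nephron progenitor, erythroid, leukocyte, endothelial, adrenal, muscle and cell cycle markers, were chosen with earlier results of these data known. Replicate numbers did not pair the arrays: 2 of 15 same-number pairs correlated above 0.1 in their deviations from group means (range -0.114 to 0.179). No 2 arrays held identical values.

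Alternatives were other pseudocounts (1 and 64), filters, scalings and probe set rules, array weights, eBayes without a trend, a replicate block, the GAPDH ratio as a covariate, and leaving out arrays.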

Additional observations from a re-analysis of the deposited data

How the results depend on the processing

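The downward direction of the median held throughout for 60dG to 160dG, from -0.46 to -0.29 over 26 alternatives, and for the first step, from -0.24 to -0.08 over 25; for 90dG to 125dG it ranged from -0.18 to 0.04 and lay below 0 in 22 of 25. Of 57 called values of single genes, 7 kept their call in every alternative, and 1 changed sign: HNRNPU from 90dG to 125dG was 0.23 with the mean of its probe sets. The causes of these shifts were not tested.

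Counts of called genes moved as follows, and percentages in brackets are the share of all tested genes called in the same fit. With the GAPDH ratio as a covariate the counts were 2 for 60dG to 90dG (4.11%), 1 for 90dG to 125dG (0.625%), 2 for 60dG to 125dG (5.59%) and 16 for 60dG to 160dG (13.7%). Without 90dG replicates 2 and 3 a single 90dG array is left. The median log2 difference of the 53 genes was then -0.14 for 60dG to 90dG, against 0.02 for all tested genes. For 90dG to 125dG it was -0.18, against -0.01. Without the 90dG group the counts were 9 for the F test (8.7%) and 2 for 60dG to 125dG (5.23%). Without _s_at and _x_at probe sets, whose probes match more than 1 transcript, 24 genes were tested. The counts were then 6 for the F test (17.3%) and 6 for the trend (9.31%). For the 4 comparisons they were 1 (9.56%), 2 (3.74%), 0 (5.5%, 6 unadjusted) and 4 (12.9%). eBayes without a trend gave 3 (7.77%), 4 (2.94%) and 0 (4.57%, 9 unadjusted) for the first 3 comparisons and 6 for the trend (8.68%). No filter gave 4 for 60dG to 90dG (4.06%) and 5 for 90dG to 125dG (1.78%). The mean of probe sets gave 5 for 90dG to 125dG (6.84%) and 2 for 60dG to 125dG (5.33%). All probe sets gave 12 for 60dG to 90dG (9.56%). Array weights gave 2 for 60dG to 125dG (6.95%) and 14 for 60dG to 160dG (13.9%). With the replicate block the 60dG to 125dG count was 0 (3.52%, 13 unadjusted) instead of 1. Among alternatives that left out no array, no other count moved by over 1.5 times. Of the arrays, 4 of 11 correlated best with their own number.

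For the 106 splicing genes outside the rule, 3 were called from 90dG to 125dG instead of 7, both with the GAPDH ratio as a covariate and without 90dG replicates 2 and 3; leaving out single 60dG or 90dG arrays gave 2 to 6 for 60dG to 90dG, 3 to 9 for 90dG to 125dG and 1 to 17 for 60dG to 160dG.

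Leaving out single arrays gave 11 to 22 for the F test, 0 to 8 for 60dG to 90dG, 0 to 7 for 90dG to 125dG, 0 to 2 for 60dG to 125dG, 1 to 11 for 60dG to 160dG and 6 to 13 for the trend. The share of all tested genes called moved as well, and was lower without either 60dG array than with all arrays. Without single arrays of other stages it was 11.8% to 20.2% for the F test and 4.59% to 11% for 60dG to 90dG. It was 0.644% to 8.36% for 90dG to 125dG and 3.05% to 5.4% for 60dG to 125dG. For 60dG to 160dG it was 8.53% to 13.3%, and for the trend 6.01% to 9.55%. The counts of the 106 genes outside the rule come from the same fits. From 125dG to 160dG limma called 0 in every alternative, with 2 to 9 unadjusted. The adult median difference ran from -0.62 to -0.53 when an array was left out, and was -0.49 with a pseudocount of 64, -0.49 without a filter (0.12 for all genes) and -0.47 with each array scaled to its median.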
